A study of Mus musculus with 12 samples.

Results

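The D cyclins, the kinases they activate and the inhibitors of those kinases were examined in mouse bone marrow progenitors that carried a leukaemia fusion gene. The 10 genes were Ccnd1, Ccnd2, Ccnd3, Cdk4, Cdk6, Cdkn1a, Cdkn1b, Cdkn1c, Cdkn2c and Cdkn2d, taken as every probe set of the array whose annotation gave that symbol alone. They were measured by 26 of the 45101 probe sets, and all 26 passed the filter on low values. Each gene is described by its brightest probe set, which makes these 10 of the 12918 genes tested.

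The cells were normal marrow progenitors of the KSLF phenotype, meaning that they were sorted as positive for c-Kit and Sca-1 and as negative for lineage markers and for Flt3. INV16 cells received a retrovirus encoding the INV16 fusion, which joins CBFB, the partner subunit of the RUNX transcription factors, to the tail of a smooth muscle myosin heavy chain (4 arrays). ACD mutant cells received that fusion with the assembly competence domain deleted, which the design text calls non-leukemogenic (3 arrays). MIB control cells received the empty retroviral vector (5 arrays). The medium of all 3 groups held 10% serum and 2 cytokines, SCF (50 ng/ml) and IL-6 (5 ng/ml). The cells spent 24 h in it before a 4 h exposure to virus and 20 h after that exposure, and the GFP-positive cells were then sorted, so the arrays show an early state under growth stimulation with expression driven by a vector. Each array came from its own sort and transduction per the design text, so the tests measure the spread between such experiments.

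D cyclins are the growth factor sensors of the cell cycle. They bind CDK4 or CDK6, and the active pair phosphorylates the retinoblastoma protein, which releases E2F transcription factors and lets the cell enter S phase. The INK4 proteins p18 (Cdkn2c) and p19 (Cdkn2d) bind CDK4 and CDK6 and block them, whereas the Cip/Kip proteins p21 (Cdkn1a), p27 (Cdkn1b) and p57 (Cdkn1c) bind cyclin and CDK pairs and chiefly restrain CDK2. In blood stem and progenitor cells p57, p27 and p18 are known for holding cells out of cycle, and RUNX1 and its partner CBFB are known regulators of several of these genes.

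All values are log2 intensities as deposited, so a difference of 1 is a doubling, and levels are compared between samples for 1 probe set but never between probe sets. The 12 arrays had medians of 5.62 to 5.79. Arrays carry no read depth, and their number limits the precision. Kit stood at 10.26 to 11.43 and Cd34 at 11.15 to 12.35 on 11 arrays, while Flt3 transcript was measured at 8.03 to 9.76 although the cells were sorted as negative for the surface protein. INV16 replicate 4 stood apart: it correlated with the other arrays at 0.895 to 0.917, and they correlated at 0.985 to 0.996 with each other. On it Cd34 was 7.39. Its mast cell markers averaged 11.21, against 6.18 to 7.12 on the other arrays, and its erythroid markers 7.68, against 5.27 to 5.84. It is therefore given by its own values, and the groups compared are INV16 replicates 1 to 3, ACD mutant replicates 1 to 3 and MIB control replicates 3 to 7. The spike-in controls split the arrays as well: the BioC minus BioB difference was 1.07 to 1.21 on INV16 replicates 1 to 3 and MIB control replicates 3 to 5, called set A here, and -0.11 to 0.07 on the ACD mutant arrays, MIB control replicates 6 and 7 and INV16 replicate 4, called set B. No label names a batch, and INV16 and the ACD mutant can be compared across the sets only through the MIB control arrays. Gapdh probe sets at the 3' and 5' ends of the transcript, whose difference reflects RNA and amplification quality, differed by 3.64 on INV16 replicate 4 and 3.17 on ACD mutant replicate 1, against 1.10 to 1.98 on the other arrays.

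**Figure D1:**
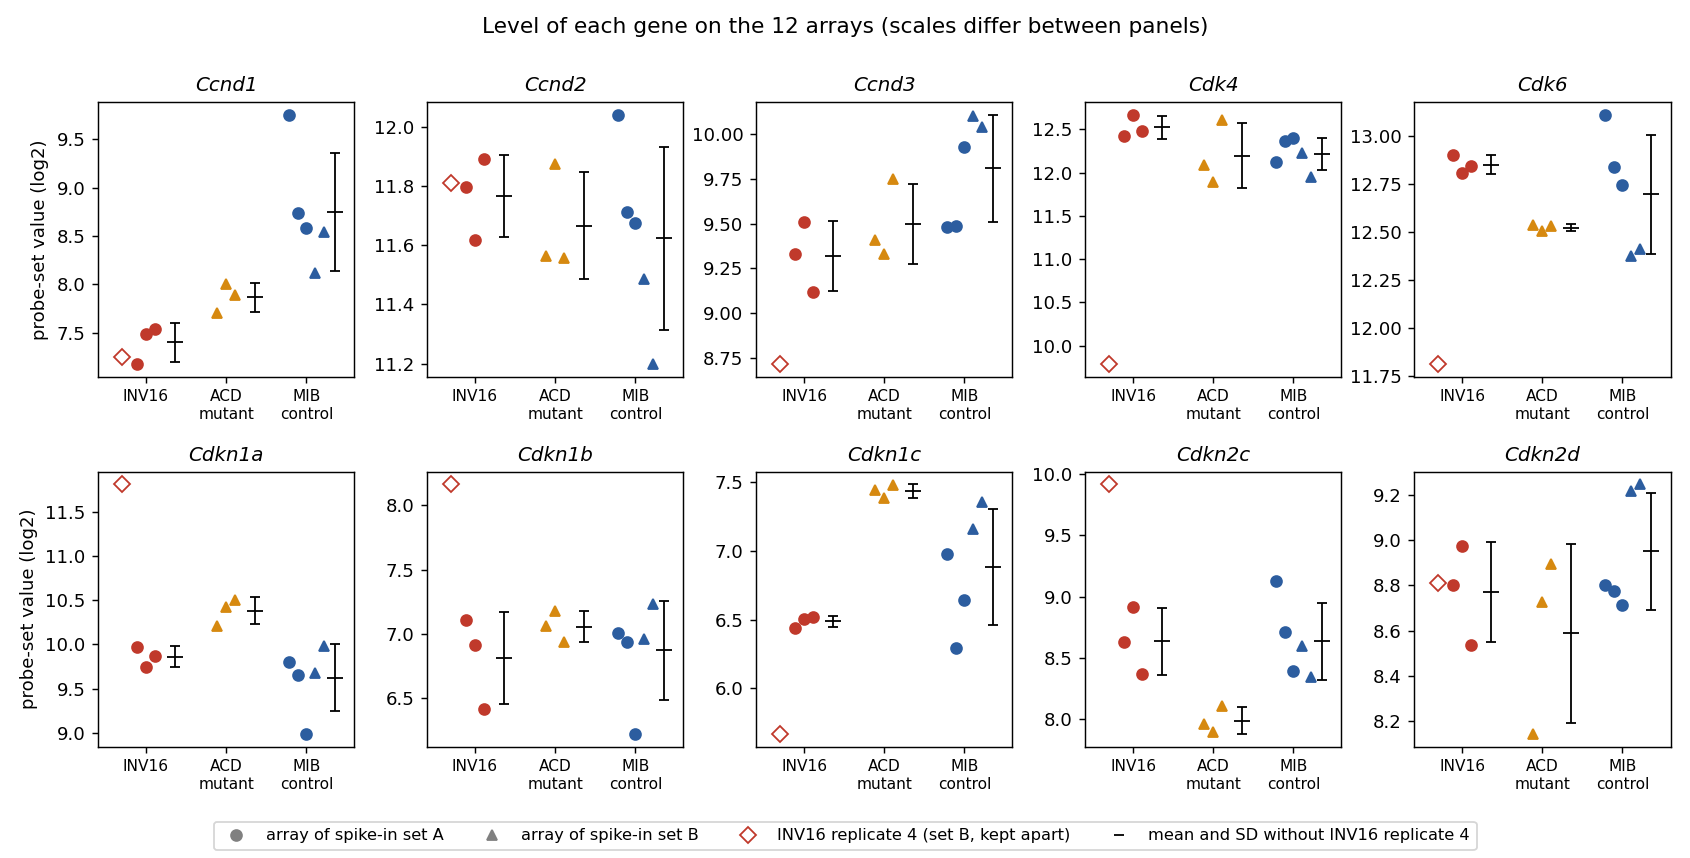
Deposited log2 intensity of the brightest probe set of each of the 10 genes, 1 panel per gene, 1 point per array, with INV16 left of the ACD mutant and MIB control black bars for the mean and SD of each group over the 11 arrays compared, circles for spike-in set A and triangles for set B. Ccnd1 lies at 7.17 to 7.54 in INV16 and at 8.12 to 9.76 in MIB control, and INV16 replicate 4, drawn apart, is lowest of all arrays for Cdk4 and highest for Cdkn1a.

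Among the D cyclins, Ccnd1 fell with INV16, and it is the member of the family that is usually the least used in blood cells. Its brightest probe set read 7.17, 7.49 and 7.54 in INV16 replicates 1 to 3, 7.71, 8.002 and 7.89 in ACD mutant replicates 1 to 3, and 9.76, 8.74, 8.59, 8.12 and 8.55 in MIB control replicates 3 to 7. The 3 groups did not overlap: every INV16 array was below every ACD mutant array, and every ACD mutant array was below every MIB control array. The means were 7.40 ± 0.20 in INV16 (SD, n = 3), 7.87 ± 0.15 in the ACD mutant (n = 3) and 8.75 ± 0.61 in MIB control (n = 5). INV16 was 2.54-fold lower than MIB control, a log2 difference of -1.35 (SE 0.27, 95% interval -1.93 to -0.77, limma adjusted p = 0.0252). The ACD mutant minus MIB control difference was -0.88 (SE 0.27, limma adjusted p = 0.0983), which did not pass the threshold of 0.05, and INV16 minus ACD mutant was -0.46 with an interval of -1.11 to 0.18 (limma adjusted p = 0.434). In bulk RNA, fewer cells with the transcript and less of it per cell cannot be told apart.

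The dimmer Ccnd1 probe sets gave smaller differences that did not pass. The second brightest read 7.25, 7.55 and 7.34 in INV16, 8.14, 8.19 and 7.91 in the ACD mutant, and 8.85, 7.41, 8.01, 7.89 and 8.37 in MIB control, so that here INV16 overlapped MIB control and the ACD mutant lay inside it. The third read 6.94, 7.21 and 7.13 in INV16, 7.45, 7.25 and 7.57 in the ACD mutant, and 9.42, 8.03, 8.56, 7.65 and 8.07 in MIB control, again with no overlap of INV16 and MIB control. Their INV16 minus MIB control differences were -0.73 and -1.25 (limma adjusted p over all probe sets of 0.176 and 0.0638), against 0.0316 for the brightest. MIB control itself differed by spike-in set, with Ccnd1 at 8.12 to 8.55 in set B and 8.59 to 9.76 in set A. With the set as a block the INV16 minus MIB control difference was -1.62 (limma adjusted p = 0.0114), and the ACD mutant minus MIB control difference was -0.46 (0.454). In the fit within set A alone INV16 minus MIB control was again -1.62, and it did not pass (limma adjusted p = 0.0653). Without MIB control replicate 5, INV16 replicate 1 or INV16 replicate 2 the INV16 call was lost, at limma adjusted p of 0.05004, 0.153 and 0.0794. Of the listed neutrophil genes 5 of 6 were lower in INV16 by value, Ctsg being at 0.14, and 1 passed the limma test, S100a8 (difference -3.08, adjusted p = 0.0144). The mean level of the list was 9.16 to 9.73 in INV16, 9.77 to 10.14 in the ACD mutant and 9.98 to 11.68 in MIB control. Within MIB control the lowest mean, 9.98, was that of replicate 3, where Ccnd1 was highest (9.76). The highest mean, 11.68, was that of replicate 6, where Ccnd1 was lowest (8.12). These are only the extreme MIB control arrays, and they lie in different spike-in sets, replicate 3 in set A and replicate 6 in set B. In the same comparison Procr, 1 of 7 markers of the sorted progenitors, was higher in INV16 by 1.48 (limma adjusted p = 0.0252). Dntt, 1 of 3 lymphoid genes tested, was higher by 3.04 (limma adjusted p = 0.0227). Both rises came mainly from INV16 replicates 1 and 2. Over INV16 replicates 1 to 3 Procr read 10.16, 10.02 and 8.59, and Dntt read 11.09, 10.81 and 7.75. Replicate 3 was above every MIB control array for both genes, but by the least. The part of neutrophil, progenitor and lymphoid cells in the Ccnd1 result was not tested.

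Ccnd2, the D cyclin that responds to cytokines in many blood cells, differed little between the groups by its brightest probe set. It read 11.80, 11.62 and 11.89 in INV16, 11.57, 11.88 and 11.56 in the ACD mutant, and 12.04, 11.71, 11.68, 11.49 and 11.20 in MIB control. All 3 groups overlapped, and the intervals of the differences were -0.21 to 0.50 for INV16 minus MIB control and -0.31 to 0.39 for ACD mutant minus MIB control. This probe set is of a type whose probes may match other transcripts, and others of the 7 Ccnd2 probe sets gave lower ACD mutant values. One of them read 10.77, 11.37 and 11.34 in the ACD mutant, below all 5 MIB control values of 11.46 to 12.03, with a difference of -0.57 (limma adjusted p over all probe sets of 0.0699). Over the 7 probe sets the ACD mutant minus MIB control difference ran from -0.60 to 0.043. It was below 0 for 6 of the 7, and 0 passed the limma threshold, so its size depends on the probe set.

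Ccnd3, the D cyclin that many lymphoid and erythroid precursors rely on, read 9.33, 9.51 and 9.12 in INV16, 9.41, 9.33 and 9.75 in the ACD mutant, and 9.48, 9.49, 9.93, 10.10 and 10.04 in MIB control. The INV16 values were low in the MIB control range or below it, with 1 of the 3 above the lowest MIB control array. The difference was -0.49 for INV16 minus MIB control (SE 0.17, limma adjusted p = 0.178) and -0.31 for ACD mutant minus MIB control (0.344), and neither passed the threshold. The other Ccnd3 probe sets were dimmer and gave smaller differences for INV16, the smallest being -0.055.

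Of the kinases, Cdk4 had all of its INV16 values above those of MIB control, without passing the test. The base sequence upstream of its start is shown because CBFB acts through RUNX proteins and Cdk4 was the member whose promoter window held the RUNX letters. It covers the 250 bases before the RefSeq start, chr10:127063285-127063534 on the plus strand of GRCm38.p6, with the E-box CACGTG, the motif bound by Myc and related factors, and the RUNX letters TGTGGT, which read ACCACA on the reverse strand, in capitals.

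Cdk4 promoter: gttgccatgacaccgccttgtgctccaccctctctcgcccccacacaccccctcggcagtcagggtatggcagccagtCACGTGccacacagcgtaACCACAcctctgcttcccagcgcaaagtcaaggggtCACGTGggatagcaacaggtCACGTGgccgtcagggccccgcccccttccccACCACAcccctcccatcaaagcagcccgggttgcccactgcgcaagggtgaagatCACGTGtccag

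The window held 4 E-boxes and 2 RUNX matches, which do not overlap each other. Over 32851 mouse RefSeq promoter windows of the same length, searched on both strands, 6.02% held at least 1 E-box, 7 windows (0.021%) held 4 or more, and 14.0% held the RUNX letters. RefSeq windows were found for 7 of the 10 genes, 10 windows in all, and Ccnd1, Ccnd2 and Cdkn1c had no entry. No other window of the 10 held the RUNX letters, and none held the E2F letters TTTNGCGC, found in 1.13% of all windows. A letter match describes the sequence and does not show that a factor binds there.

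Cdk4 read 12.42, 12.67 and 12.48 in INV16, 12.08, 11.89 and 12.61 in the ACD mutant, and 12.12, 12.36, 12.40, 12.22 and 11.95 in MIB control. All 3 INV16 arrays lay above all 5 MIB control arrays, while the ACD mutant spanned them. The INV16 minus MIB control difference was 0.31 (SE 0.16, interval -0.027 to 0.65, limma adjusted p = 0.358), and the other Cdk4 probe sets gave differences of up to 0.39. The ACD mutant minus MIB control difference was -0.014 (limma adjusted p = 0.976). The brightest Cdk4 probe set is of the same type as that of Ccnd2, whose probes may match other transcripts.

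Cdk6, the D cyclin kinase most associated with blood progenitors, read 12.90, 12.81 and 12.84 in INV16, 12.54, 12.50 and 12.53 in the ACD mutant, and 13.11, 12.84, 12.74, 12.37 and 12.41 in MIB control. The ACD mutant arrays were all below the INV16 arrays, and both groups lay within the MIB control range. INV16 minus ACD mutant was 0.33 (SE 0.17, limma adjusted p = 0.307). The MIB control arrays differed by more than this, at 12.37 to 12.41 in set B and 12.74 to 13.11 in set A, and with the set as a block the difference was -0.18. The 3 Cdk6 probe sets disagreed, with INV16 minus ACD mutant between -0.19 and 0.97.

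**Figure D2:**
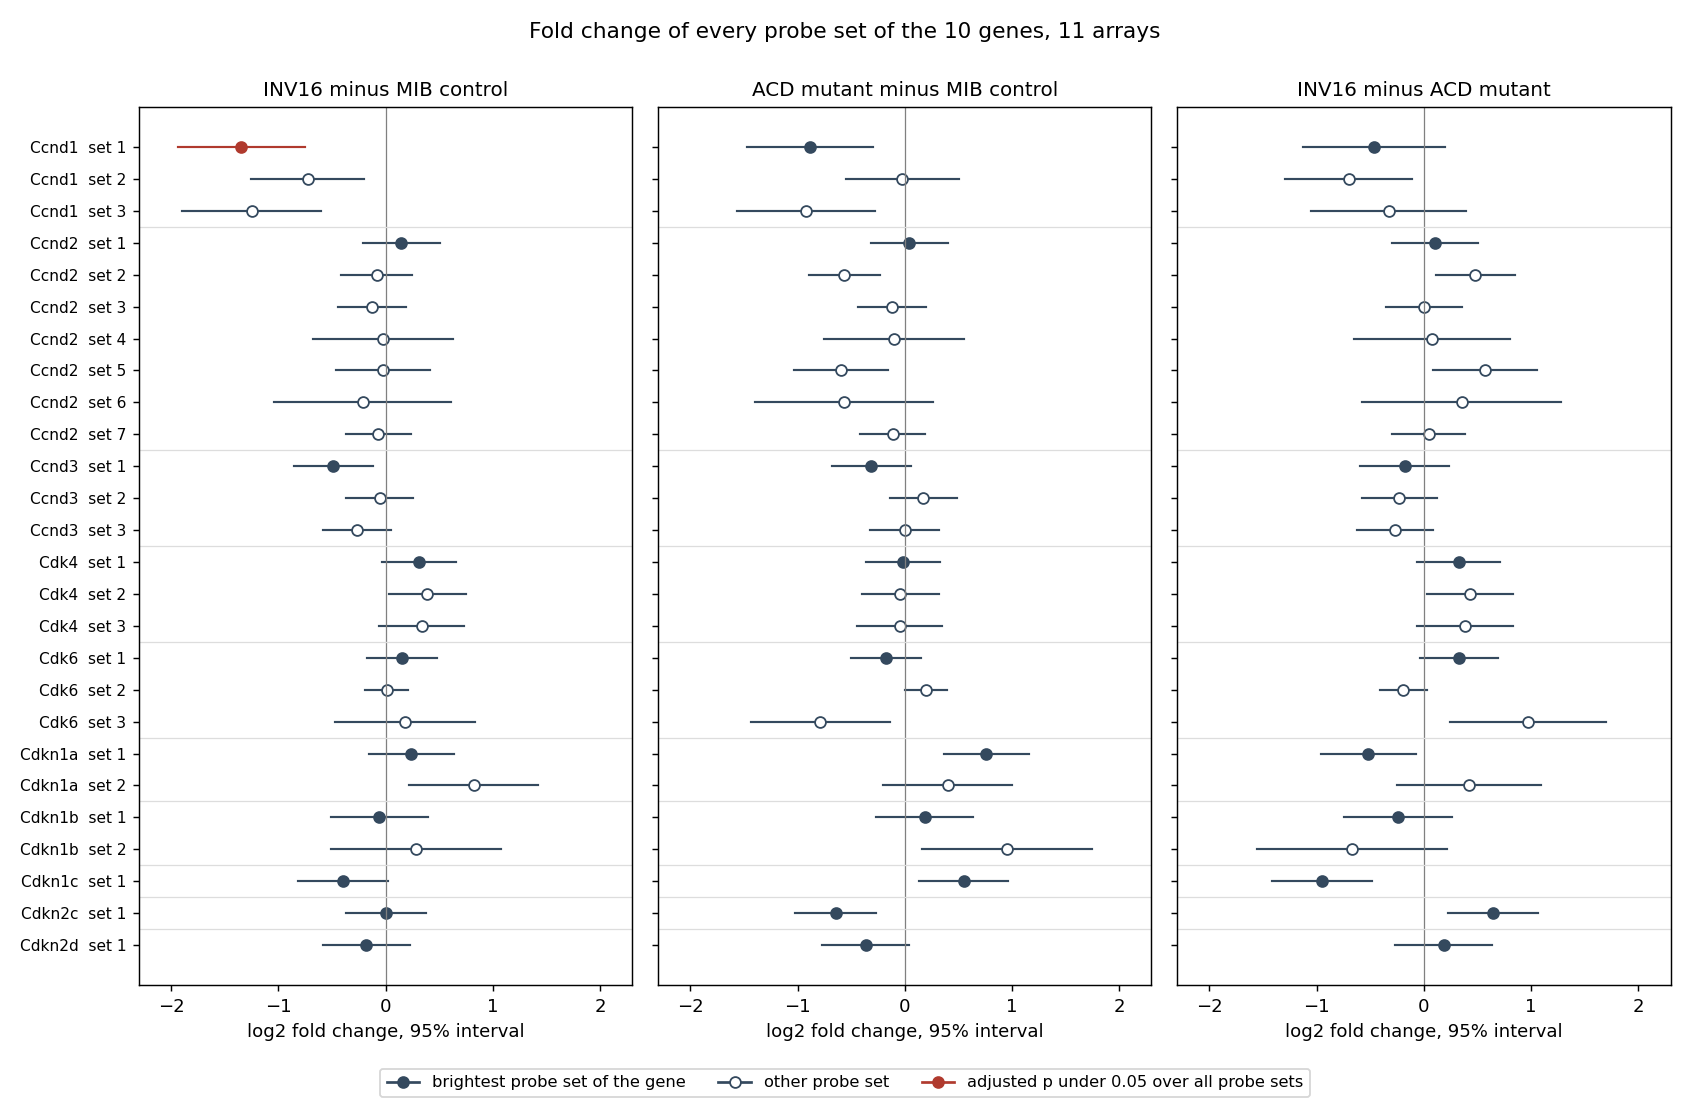
Log2 fold change of each of the 26 probe sets in the 3 comparisons, grouped by gene, with 95% intervals from the limma fit of 11 arrays. The Ccnd1 probe sets lie between -1.35 and -0.73 for INV16 minus MIB control, the Cdk4 probe sets lie close together, and the Ccnd2, Cdk6 and Cdkn1a probe sets spread.

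Over all probe sets with a single symbol, 1 of the 26 passed the limma threshold for INV16 minus MIB control (1.39% of all 22694), 0 for ACD mutant minus MIB control (1.69% of all) and 0 for INV16 minus ACD mutant (1.27% of all). At an unadjusted p under 0.05 the same limma fit gave 6, 10 and 8 of the 26, where 15.2%, 19.7% and 18.3% of all probe sets tested were under it.

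Among the Cip/Kip inhibitors, the brightest probe sets of Cdkn1a and Cdkn1c had their highest values in the ACD mutant. Cdkn1a, which encodes p21, the CDK inhibitor induced by p53, read 9.97, 9.74 and 9.87 in INV16, 10.21, 10.43 and 10.50 in the ACD mutant, and 9.80, 9.65, 8.99, 9.68 and 9.99 in MIB control. Every ACD mutant array was above every array of the other groups, and INV16 overlapped MIB control. The ACD mutant minus MIB control difference was 0.76 (SE 0.18, interval 0.37 to 1.15), and the limma adjusted p of 0.0529 missed the threshold by little. Without MIB control replicate 7, the 1 of 11 fits without 1 array that passed, the difference was 0.85 (limma adjusted p = 0.0231). With the spike-in set as a block it was 0.55 (0.219). INV16 minus ACD mutant was -0.52 (limma adjusted p = 0.188).

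The second Cdkn1a probe set ordered the groups otherwise. It read 9.12, 9.14 and 8.75 in INV16, 8.24, 8.72 and 8.80 in the ACD mutant, and 8.79, 8.86, 7.63, 7.81 and 7.82 in MIB control. INV16 was highest here, with a difference of 0.82 over MIB control (limma adjusted p over all probe sets of 0.180), and INV16 minus ACD mutant was 0.42, so the order of INV16 and the ACD mutant depends on the probe set. The window before the distal of the 2 RefSeq starts of Cdkn1a, chr17:29090729-29090978 on the plus strand of GRCm38.p6, is shown because it holds a pair of p53 half-site cores, in capitals.

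Cdkn1a promoter: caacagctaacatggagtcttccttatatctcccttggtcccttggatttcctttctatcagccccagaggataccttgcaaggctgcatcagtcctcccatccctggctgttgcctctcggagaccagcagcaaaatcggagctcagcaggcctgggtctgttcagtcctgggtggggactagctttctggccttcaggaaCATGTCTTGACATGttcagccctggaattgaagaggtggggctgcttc

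This motif was chosen after the window had been read, and 0.490% of the 32851 windows hold it.

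Cdkn1b, which encodes p27, read 7.11, 6.91 and 6.41 in INV16, 7.06, 7.18 and 6.94 in the ACD mutant, and 7.01, 6.94, 6.22, 6.96 and 7.23 in MIB control. The groups overlapped, and the differences from MIB control were -0.059 for INV16 (limma adjusted p = 0.923) and 0.19 for the ACD mutant (0.694). Its dimmer probe set read 6.54, 6.57 and 5.88 in the ACD mutant and 4.14 to 6.10 in MIB control, a difference of 0.95 (limma adjusted p over all probe sets of 0.171).

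Cdkn1c, which encodes p57, was the other gene that passed a test. It read 6.44, 6.51 and 6.52 in INV16, 7.44, 7.38 and 7.48 in the ACD mutant, and 6.98, 6.29, 6.64, 7.16 and 7.35 in MIB control. The INV16 arrays were tightly grouped and low, the ACD mutant arrays were tightly grouped above every other array, and MIB control spread between and below them. INV16 was 1.93-fold lower than the ACD mutant, a log2 difference of -0.95 (SE 0.21, interval -1.41 to -0.49, limma adjusted p = 0.0397). Against MIB control the differences were -0.40 for INV16 (limma adjusted p = 0.328) and 0.55 for the ACD mutant (0.128), so neither arm alone passed. The 2 groups of this comparison lie in different spike-in sets, and Cdkn1c of MIB control was also higher in set B, at 7.16 to 7.35, than in set A, at 6.29 to 6.98. With the set as a block INV16 minus ACD mutant was -0.33 (limma adjusted p = 0.588), and ACD mutant minus MIB control was 0.18 (0.652). Without 1 array the call was also lost, at limma adjusted p of 0.0502 without MIB control replicate 5, of 0.112, 0.112 and 0.0739 without INV16 replicates 1 to 3, and of 0.113, 0.134 and 0.0912 without ACD mutant replicates 1 to 3. Megakaryocyte genes moved with Cdkn1c, with a mean level of 7.01 to 7.14 in INV16, 8.51 to 8.89 in the ACD mutant and 6.97 to 9.38 in MIB control, and 1 of 5 passed (Vwf, INV16 minus ACD mutant -2.23, limma adjusted p = 0.0485). Mast cell genes stood at 6.53 to 6.62 in INV16, 6.93 to 7.12 in the ACD mutant and 6.18 to 7.00 in MIB control. For INV16 minus ACD mutant 5 of 7 tested were below 0. Of these 2 passed, Cpa3 (difference -1.45, limma adjusted p = 0.0379) and Ms4a2, and Hdc was at -1.06 (0.0531). The defining mast cell genes Fcer1a and Cma1 were dim on these 11 arrays, at 4.27 to 5.74 and 4.50 to 5.27, and ran the other way, with INV16 minus ACD mutant at 0.62 (limma adjusted p = 0.211) and 0.45 (0.132). These genes and Il4, at 4.41 to 5.18, passed the filter of 5.10 only because its mean included INV16 replicate 4. On that array Fcer1a, Cma1 and Il4 read 13.31, 12.70 and 10.09, so their differences here are between values near the filter level. The part of these cells in the Cdkn1c result was not tested.

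Of the INK4 inhibitors, Cdkn2c, which encodes p18, had its lowest values in the ACD mutant. It read 8.63, 8.91 and 8.37 in INV16, 7.96, 7.90 and 8.11 in the ACD mutant, and 9.13, 8.71, 8.40, 8.60 and 8.35 in MIB control. The ACD mutant arrays lay below all others, and INV16 and MIB control overlapped fully. The differences were -0.64 for ACD mutant minus MIB control (SE 0.17, limma adjusted p = 0.0655), 0.65 for INV16 minus ACD mutant (0.0917) and 0.0030 for INV16 minus MIB control (0.995). Without MIB control replicate 7 the ACD mutant difference was -0.72 (limma adjusted p = 0.0365), and without MIB control replicate 3 the INV16 minus ACD mutant difference was 0.65 (0.0420). Each was the 1 of 11 fits without 1 array in which that comparison passed. With the spike-in set as a block the 2 differences were -0.48 (limma adjusted p = 0.264) and 0.37 (0.622).

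Cdkn2d, which encodes p19, read 8.80, 8.97 and 8.54 in INV16, 8.14, 8.73 and 8.90 in the ACD mutant, and 8.80, 8.77, 8.71, 9.22 and 9.25 in MIB control. The lowest value was that of ACD mutant replicate 1, whose Gapdh ends differed most among the 11 arrays. The differences from MIB control were -0.18 for INV16 (limma adjusted p = 0.692) and -0.36 for the ACD mutant (0.304). The remaining INK4 genes were dim: Cdkn2a stood at 3.87 to 4.18 on the 11 arrays, below the filter of 5.10, and Cdkn2b at 5.40 to 5.79, with INV16 minus MIB control at 0.070 and ACD mutant minus MIB control at -0.044.

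**Figure D3:**
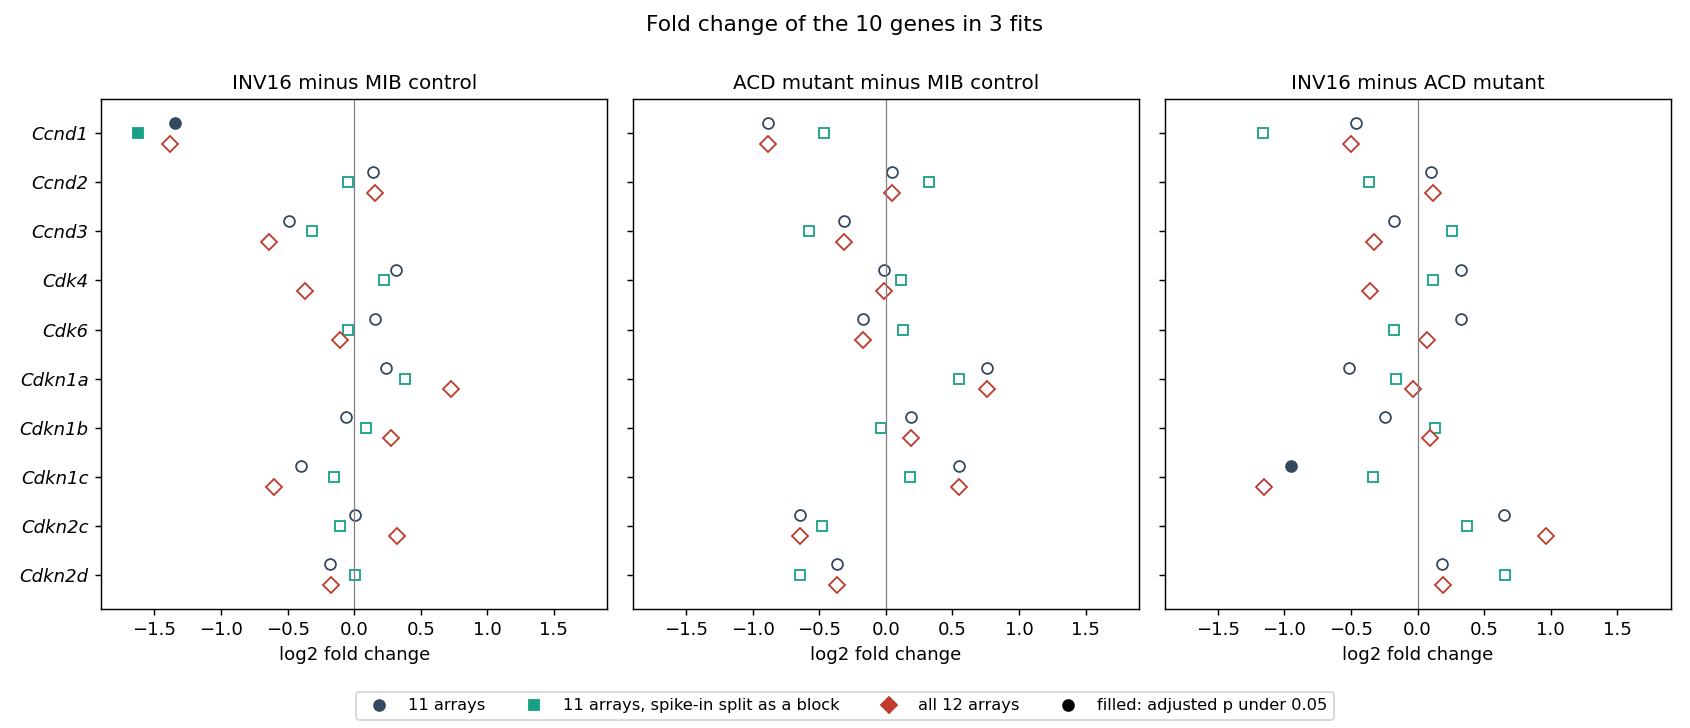
Log2 fold change of the 10 genes in the 3 comparisons, 1 symbol each for the fit of 11 arrays, that fit with the spike-in set as a block and the fit of all 12 arrays, filled where the limma adjusted p was under 0.05. Ccnd1 stays between -1.62 and -1.35 for INV16 minus MIB control, whereas Cdkn1c for INV16 minus ACD mutant is at -0.95 in the fit of 11 arrays and at -0.33 with the block.

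Counted over the 10 genes, INV16 minus MIB control had 1 that passed the limma threshold, Ccnd1, which was lower, where 1.70% of all genes tested passed, and 2 of the 10 were at an unadjusted limma p under 0.05, against 15.8% of all genes. ACD mutant minus MIB control had 0, where 1.70% of all genes passed, and 4 of the 10 were at an unadjusted limma p under 0.05 (Ccnd1, Cdkn1a, Cdkn1c and Cdkn2c), against 19.5% of all genes. INV16 minus ACD mutant had 1, Cdkn1c, where 2.07% of all genes passed, and 3 of the 10 were at an unadjusted limma p under 0.05, against 19.0% of all genes. The median difference over the 10 genes was -0.028, -0.093 and -0.038 in the 3 comparisons, beside -0.030, 0.0063 and -0.025 over all genes, and 5, 4 and 5 of the 10 were above 0. The groups did not overlap for 2 of 10 genes in INV16 against MIB control (9.26% of all genes), for 4 of 10 in the ACD mutant against MIB control (12.8%) and for 5 of 10 in INV16 against the ACD mutant (28.6%). Within MIB control alone, set B did not overlap set A for 6 of the 10 genes, a property that 39.0% of all genes had. The first 2 comparisons share the MIB control arrays, and the fits share 1 estimate of the spread.

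The genes around this step of the cycle changed in small numbers. Of 80 listed genes 74 were tested, and 0 were higher and 3 lower in INV16 than in MIB control (limma, adjusted p under 0.05), 1 higher and 1 lower for ACD mutant minus MIB control, and 0 higher and 3 lower in INV16 than in the ACD mutant. Over all genes tested, 1.70%, 1.70% and 2.07% passed in these comparisons.

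In the list of RB and E2F genes, 13 tested, Rb1 rose in the ACD mutant and 2 E2F genes fell with INV16. Rb1, which encodes the substrate of the D cyclin kinases, read 9.09, 9.01 and 8.81 in INV16, 9.52, 9.60 and 9.42 in the ACD mutant, and 9.19, 9.19, 8.99, 8.87 and 8.94 in MIB control. The ACD mutant arrays were above all others, with a difference of 0.48 over MIB control (SE 0.11, limma adjusted p = 0.0479) and INV16 minus ACD mutant at -0.55 (0.0416). The mast cell gene Hdc rose in the ACD mutant too (ACD mutant minus MIB control 1.56, limma adjusted p = 0.0150), the 1 of 7 tested that passed. Of the 7, 5 were above 0 and 2 below it. These were Fcer1a, without overlap, at -0.71 (limma adjusted p = 0.111) and Cma1 at -0.072 (0.840), dim genes kept by the filter only through INV16 replicate 4. Rb1 was 11.08 on INV16 replicate 4, above the other 11 arrays, as were 34.3% of all genes on that array. The part of mast cells in the Rb1 result was not tested. E2f8, a repressor of the E2F family, read 10.78, 10.86 and 10.95 in INV16, 11.37, 11.42 and 11.36 in the ACD mutant, and 11.34, 11.47, 11.29, 11.38 and 11.60 in MIB control. INV16 was below every other array, with differences of -0.55 from MIB control (SE 0.097, limma adjusted p = 0.0132) and -0.52 from the ACD mutant (0.0312). E2f2, an activator of the family, read 6.91, 7.14 and 6.93 in INV16, 7.33, 7.18 and 7.36 in the ACD mutant, and 7.60, 7.22, 7.72, 7.66 and 7.56 in MIB control. It was lowest in INV16, with INV16 minus MIB control at -0.56 (SE 0.12, limma adjusted p = 0.0357). Of the 13 genes 11 were below 0 in INV16 minus MIB control, with a median of -0.12, where 56.3% of all genes were below 0 and the median was -0.030.

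Smad3, which carries TGF-beta signals that raise CDK inhibitors in many cells, was the 1 of 13 upstream regulators that passed. It read 8.58, 8.73 and 8.66 in INV16, 9.23, 9.17 and 9.20 in the ACD mutant, and 9.63, 9.20, 9.60, 9.31 and 9.58 in MIB control. INV16 lay below every other array, with differences of -0.80 from MIB control (SE 0.11, limma adjusted p = 0.00516) and -0.54 from the ACD mutant (0.0489). The smallest p of this list in the ACD mutant against MIB control was that of Foxo1, a transcription factor that raises p27 in many cells, at 0.46 (limma adjusted p = 0.0538).

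The lists of S phase genes and of G2 and mitosis genes gave 1 call. Aurka, a mitotic kinase, read 9.68, 9.58 and 10.05 in the ACD mutant, against 10.39, 10.35, 10.37, 10.35 and 10.11 in MIB control, a difference of -0.54 with no overlap (SE 0.12, limma adjusted p = 0.0484). It was the 1 of 11 genes of G2 and mitosis that passed in that comparison. With INV16 the smallest p of that list was that of Aurkb, another mitotic kinase, at -0.29 against MIB control (limma adjusted p = 0.209), and Aurka was at 0.47 for INV16 minus ACD mutant (0.0920). Among 15 E2F target genes of S phase 0 passed in any comparison, and the smallest p values were those of Uhrf1 for INV16 minus MIB control (-0.65, limma adjusted p = 0.0960), Tk1 for ACD mutant minus MIB control (-0.35, 0.115) and Cdt1, a replication licensing factor, for INV16 minus ACD mutant (-0.46, 0.0531).

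The cyclin E and A list and the list of ubiquitin ligases and partners that turn over D cyclins and inhibitors also had 0 calls by limma, of 8 and 13 genes. Cdc25a, the phosphatase that activates CDK2, was at 0.47 for INV16 minus MIB control (limma adjusted p = 0.126) and 0.28 for INV16 minus ACD mutant (0.358), and Ccna2 at -0.31 for ACD mutant minus MIB control (0.122). Fbxo4 was at -0.41 for INV16 minus MIB control (limma adjusted p = 0.240), Rnf123 at 0.33 for ACD mutant minus MIB control (0.147) and Fbxo31 at -0.49 for INV16 minus ACD mutant (0.0865).

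**Figure D4:**
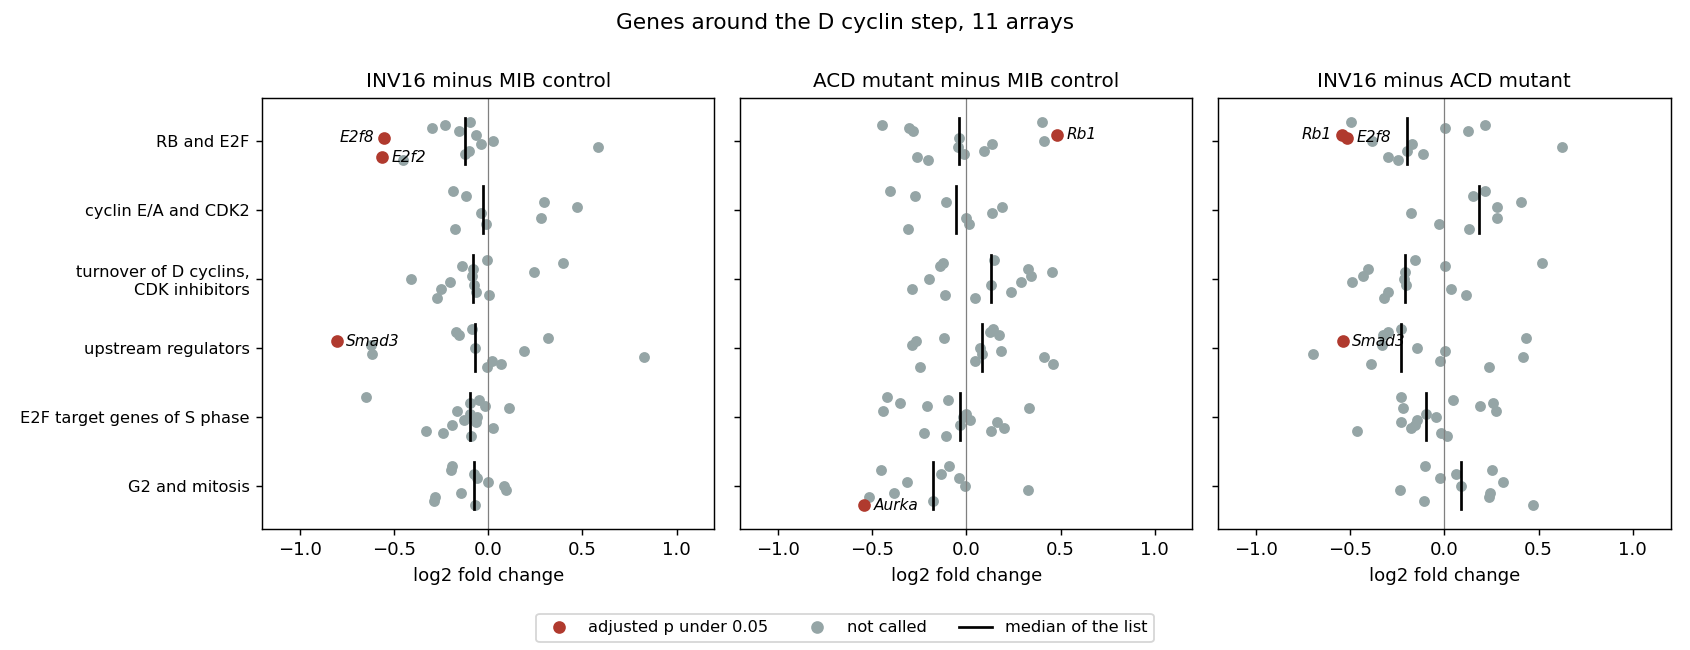
Log2 fold change of the tested genes of the 6 pathway lists in the 3 comparisons, 1 point per gene, with a bar for the median of each list and red points for genes at a limma adjusted p under 0.05. Most points lie within 0.5 of 0, and the red points are E2f2, E2f8, Smad3, Rb1 and Aurka.

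Of these calls, that of Smad3 against MIB control held in every fit without 1 array. When each of the 11 arrays was left out in turn, Smad3 in INV16 minus MIB control passed in 11 of 11 fits and E2f8 in 9, missing without INV16 replicate 1 (limma adjusted p = 0.105) or replicate 2 (0.0620). E2f2 passed in 1 (limma adjusted p 0.00821 to 0.198), and in ACD mutant minus MIB control Rb1 (0.0450 to 0.223) and Aurka (0.0260 to 0.237) passed in 3 each. In INV16 minus ACD mutant, E2f8 passed in 6, Rb1 in 4 and Smad3 in 3 of the 11. With the spike-in set as a block E2f8 was at -0.50 (limma adjusted p = 0.0390) and Smad3 at -0.82 (0.0114) for INV16 minus MIB control, whereas the other calls were lost. E2f2 was at -0.52 (limma adjusted p = 0.0879) for INV16 minus MIB control, and Rb1 at 0.61 (0.0695) and Aurka at -0.46 (0.168) for ACD mutant minus MIB control. For INV16 minus ACD mutant, whose groups lie in different spike-in sets, E2f8 was at -0.39 (limma adjusted p = 0.370), Rb1 at -0.76 (0.177) and Smad3 at -0.58 (0.309). In the fit within set A alone, INV16 minus MIB control was again -0.50 for E2f8 and -0.82 for Smad3, and neither passed (limma adjusted p = 0.132 and 0.0653). With all 12 arrays none of these 8 calls passed, the lowest limma adjusted p being that of Smad3 for INV16 minus MIB control (0.160), and Rb1 for INV16 minus ACD mutant was at -0.018 (0.987).

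The genes whose pattern over the 11 arrays was most like that of Ccnd1, by Pearson's r, were Chn2 (r = 0.954, Spearman's rho = 0.964), Ankdd1b (0.944 and 0.873) and Cyb561 (0.935 and 0.891). For Cdkn1c they were Haspin (0.964 and 0.964), Nup210 (0.958 and 0.891) and Tmbim6 (0.953 and 0.918). The arrays share their groups and spike-in sets, so these values describe likeness and nothing more.

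INV16 replicate 4 differed from the other INV16 arrays in most of the 10 genes. Cdkn1a was 11.81, against 8.99 to 10.50 on the other 11 arrays, and Cdkn1b was 8.16 and Cdkn2c 9.91, also above all others. Cdk4 was 9.78, against 11.89 to 12.67 on the other 11 arrays, and Cdk6 (11.81), Ccnd3 (8.71) and Cdkn1c (5.67) were below all others too. Ccnd1 at 7.25, Ccnd2 at 11.81 and Cdkn2d at 8.81 lay within the range. So by the brightest probe sets 3 inhibitors were high and both kinases were low, while the p57 gene went the other way from p21 and p27. Other probe sets of some genes disagreed. The dimmer Ccnd3 probe sets read 7.39 and 7.41, above the highest other arrays at 7.37 and 6.02. The dimmer Ccnd1 probe sets read 6.55 and 6.26, below the lowest other arrays at 7.25 and 6.94. A Ccnd2 probe set was above the range, at 11.78 against at most 11.47, and the dimmer Cdkn1b probe set was within it, at 6.41.

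These 7 of 10 genes outside the range are close to the 73.0% of all 12918 genes that lay outside it on that array. The INK4 genes that were dim elsewhere were also higher, Cdkn2a at 6.35 against 3.87 to 4.18 and Cdkn2b at 7.21 against 5.40 to 5.79. All 15 E2F target genes of S phase were below the range of the other arrays, with a mean of 9.30 against 11.25 to 11.53, as were 10 of 11 genes of G2 and mitosis. All 8 mast cell genes were above the range, with Fcer1a at 13.31 and Cma1 at 12.70. So were all 4 erythroid genes, with Klf1 at 10.72 and Epor at 9.20, while 1 of 5 megakaryocyte genes was above the range and 3 were below it. Of all 12918 genes, 34.3% were above the range and 38.8% below it on this array. The part of these cells and of the Gapdh difference in the values of this array was not tested. With all 12 arrays in the fit, 0 of the 10 genes passed in any comparison: Ccnd1 was at -1.38 for INV16 minus MIB control (limma adjusted p = 0.0840) and Cdkn1c at -1.16 for INV16 minus ACD mutant (0.158).

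**Figure D5:**
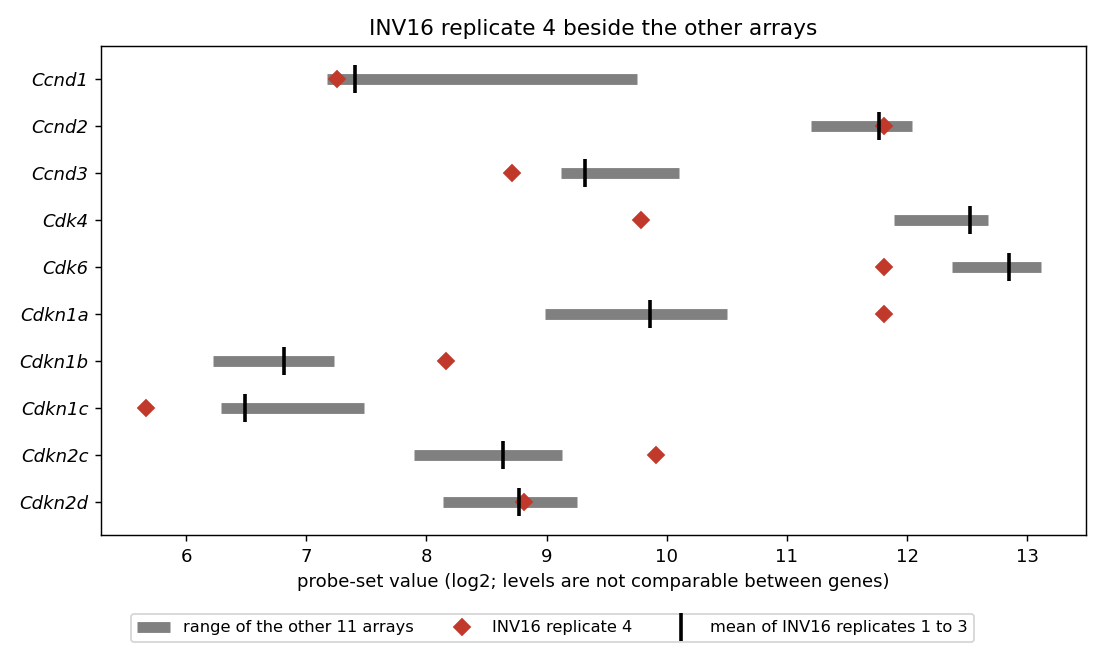
Deposited log2 value of INV16 replicate 4 (diamond) for the brightest probe set of each of the 10 genes, beside the range of the other 11 arrays (grey bar) and the mean of INV16 replicates 1 to 3 (tick). Cdkn1a is 1.95 above that mean, Cdkn1b 1.35 and Cdkn2c 1.28, while Cdk4 is at -2.74 and Cdk6 at -1.04.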

How the data were processed

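RNA of 12 samples was hybridised to Affymetrix mouse arrays after 2 cycles of cDNA amplification, per the labels' protocols. The authors deposited log2 values of 45101 probe sets. The base was read from the values (2.82 to 14.97), and the background correction, normalisation and summary used are not given in the sources used here. Such values compress dim genes. Names came from the platform annotation: 34945 probe sets had 1 symbol, 932 several and 9160 none, and 64 were controls. Entrez IDs of 34741 were in the RefSeq table and changed 0 symbols. Columns left unused numbered 0.

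Probe sets above the 40th percentile of means over all 12 arrays (5.10), INV16 replicate 4 included, were kept. The brightest per gene by that mean was tested with limma 3.58.1 in R 4.3.3: a mean per group over 11 arrays, eBayes and Benjamini-Hochberg adjustment over 12918 genes, two-sided, called at an adjusted p under 0.05. A second fit used 22694 probe sets with a single symbol. Groups came from titles alone. No 2 arrays held the same values (SD of the difference within groups 0.224 to 0.371). Replicate numbers 1 to 3 of INV16 and the ACD mutant correlated at -0.16, -0.18 and -0.31 and were not used as pairs. The fit was tested on simulated data.

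The text names all 10 genes, every called gene of the pathway lists (up to 4 per list) or else that with the smallest p, and the 3 genes most correlated with each called gene. The genes, lists and the setting apart of INV16 replicate 4 were chosen with earlier results of these data known. Promoters are RefSeq's, GRCm38.p6.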

Additional observations from a re-analysis of the deposited data

Results flagged for a closer look

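In 8 of 52 sets of 4 or 5 arrays, 1 probe set in 1 group each, a single array stood apart from the rest of its group by Dixon's test, which chance alone does for about 1 in 20. All 8 were INV16 replicate 4, the array that was kept out of the comparisons. It was already known to stand apart, with 73.0% of all genes outside the range of the other 11 arrays. The outcome was thus largely set in advance, and several of the 8 are probe sets of the same gene. The 8 therefore cannot be weighed against the rate by chance, and they show nothing particular to these genes. For Cdk4 it read 9.78, 8.74 and 8.30 on the 3 probe sets, against 12.42 to 12.67, 11.58 to 11.85 and 11.55 to 11.82 on the other INV16 arrays. For Cdk6 it read 11.81 and 11.61, against 12.81 to 12.90 and 12.55 to 12.59. Cdkn1a was 11.81 against 9.74 to 9.97, and Cdkn1c was 5.67 against 6.44 to 6.52. A dim Ccnd3 probe set was 7.41 against 5.26 to 5.56.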

How the results depend on the processing

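The Ccnd1 difference for INV16 minus MIB control passed limma's threshold in 6 of 9 other settings and 8 of 11 fits without 1 array, over which it ran from -1.50 to -1.09. Cdkn1c for INV16 minus ACD mutant passed in 6 of 9 and 4 of 11 (-0.98 to -0.93). The number of the 10 genes called in INV16 minus MIB control was 0 with all 12 arrays, with only the groups compared and within set A, and 0 to 1 without 1 array. In ACD mutant minus MIB control it was 2 with quantile normalization (Cdkn1a and Cdkn2c), 1 with the filter at the 60th percentile (Cdkn1a) and 0 to 3 without 1 array (3 without MIB control replicate 7). In INV16 minus ACD mutant it was 0 with all 12 arrays, with the spike-in set as a block and with every probe set tested, 3 with only the groups compared (Cdkn1a, Cdkn1c and Cdkn2c) and 0 to 2 without 1 array. With the replicate number as a block, possible for INV16 and the ACD mutant alone, it was 1, with Cdkn1c at -0.95, and E2f8, Rb1 and Smad3 lost their calls there (limma adjusted p = 0.0789, 0.0670 and 0.0705). No paired analysis was possible for the comparisons with MIB control because at most 1 number is shared.

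No value that passed reversed. With all 12 arrays INV16 minus MIB control turned to -0.37 for Cdk4, -0.10 for Cdk6 and 0.28 for Cdkn1b, and INV16 minus ACD mutant to -0.36 for Cdk4, 0.094 for Cdkn1b, -0.16 for Cdc25a and -0.13 for Aurka. With the spike-in set as a block, and within set A, INV16 minus MIB control turned to -0.043 for Ccnd2, -0.047 for Cdk6, 0.090 for Cdkn1b, -0.11 for Cdkn2c and 0.0076 for Cdkn2d. With that block, and within set B, ACD mutant minus MIB control turned to 0.11 for Cdk4, 0.13 for Cdk6, -0.038 for Cdkn1b and 0.042 for Cdkn2b. With it INV16 minus ACD mutant turned to -0.37 for Ccnd2, 0.26 for Ccnd3, -0.18 for Cdk6, 0.13 for Cdkn1b and -0.030 for Cdkn2b. Without 1 array, INV16 minus MIB control ran from -0.13 to 0.14 for Cdkn2c and -0.22 to 0.14 for Cdkn1b, ACD mutant minus MIB control from -0.22 to 0.14 for Cdk4, -0.064 to 0.15 for Ccnd2 and -0.15 to 0.017 for Cdkn2b, and INV16 minus ACD mutant from -0.039 to 0.34 for Cdkn2d. The cause of these reversals was not tested. The values carry no measure of background, which limits dim genes such as Cdkn1c, Cdkn1b, Cdkn2a and Cdkn2b most.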
